A study of Mus musculus with 30 samples.

Results

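The genes described here are 38 genes of microglia, complement, MHC class I and the ligands of the microglial receptor Csf1r, taken from the 17477 genes of the count table. They were chosen by symbol, and all 38 were found. Of these, 31 are genes that microglia express or share with other myeloid cells, counting the C1q genes, and the other 7 are C3, C4b, H2-D1, H2-K1, B2m, Csf1 and Il34. RNA was sequenced from the hippocampus of adult C57 BL/6J mice that had been kept after weaning either singly (social isolation, SI) or several to a cage (group-housed, GH), until they were killed as adults. There were 8 SI females (animals 41 to 73), 7 GH females (animals 46 to 79), 7 SI males (animals 7 to 39) and 8 GH males (animals 1 to 24). Each mouse gave 1 polyA-selected library, no transgene or drug is named for any group, and which GH mice shared a cage is not given in the labels. The question is whether housing changed the expression of these genes, asked in each sex apart.

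Microglia are the resident macrophages of the brain. They survey the tissue through purinergic and chemokine receptors, depend on signals through Csf1r for survival, and clear cells and synapses with the help of complement and phagocytic receptors. In the classical complement pathway C1q binds its target, C4 and C3 are then cleaved and deposited, and receptors on phagocytes recognise the deposits. MHC class I molecules, made of a heavy chain and B2m, are found at low levels on neurons and glia as well as on immune cells.

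Total counts were from 18809307 to 100844898 per library, with a median of 25609585 in SI males against 49542256 in GH males. The hippocampal genes Prox1 (dentate gyrus) and Wfs1 (CA1) had at least 33.4 and 78.8 CPM (counts scaled to a common library size, with TMM) in each of the 30 libraries. Choroid plexus markers summed to between 167 and 7132 CPM. SI males 25, 33 and 39 stood apart from the other 12 males on the first principal component, at -99.5 to -61.4 against -1.34 to 35.2. Many male results are given with and without them, and a male value given once includes them unless stated. None of the 38 genes was at 0 in any library, and the lowest count was 11, of C3 in an SI male. All 38 passed the filter on low counts in both sexes. In bulk tissue, fewer cells of a type and less RNA per cell cannot be told apart, so a lower level of a microglial gene is a lower share of hippocampal RNA. Where mice were the replicates, those of 1 cage may not be independent.

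Levels between genes were compared per transcript length, as length-scaled TPM (mean over 30 mice). B2m was highest at 161 ± 15.1 (SD), followed by C1qa at 135 ± 21.5, the lysosomal protease legumain (Lgmn) at 121 ± 11.8, C1qb at 91.5 ± 10.6, cathepsin S (Ctss) at 91.1 ± 9.06 and C1qc at 85.4 ± 7.70. C1qb, Ctss and C1qc lay within 1 SD of each other. Il34 was at 49.5 ± 7.08 and its receptor gene Csf1r at 42.8 ± 6.20, while the other ligand gene, Csf1, was at 12.3 ± 3.06. C4b was at 16.3 ± 3.11 and C3 was lowest at 0.70 ± 0.40, just below Ptprc (CD45) at 1.01 ± 0.22. The mRNA of C1q, the first component of the classical pathway, was thus present at higher levels than that of C4 or C3.

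C1qa, C1qb and C1qc encode the 3 chains of C1q and lie next to each other on the minus strand of chromosome 4, between 136436044 and 136454718 of NCBIM37. They varied together between mice of a group (below), and whether they share control was not tested. The 250 bases before the start of C1qb and of C1qc are shown, from RefSeq on GRCm38.p6, each on the strand of the gene. They stand at chr4:136886201-136886450 and chr4:136892915-136893164. Capitals mark the letters of a match to GAGGAAGT, a form of the site of PU.1 (the factor that Spi1 encodes), searched on both strands.
C1qb upstream: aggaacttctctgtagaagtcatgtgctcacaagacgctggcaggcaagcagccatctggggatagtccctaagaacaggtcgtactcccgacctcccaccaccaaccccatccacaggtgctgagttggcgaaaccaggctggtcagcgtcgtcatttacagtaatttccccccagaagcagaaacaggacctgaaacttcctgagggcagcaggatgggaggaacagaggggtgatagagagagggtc
C1qc upstream: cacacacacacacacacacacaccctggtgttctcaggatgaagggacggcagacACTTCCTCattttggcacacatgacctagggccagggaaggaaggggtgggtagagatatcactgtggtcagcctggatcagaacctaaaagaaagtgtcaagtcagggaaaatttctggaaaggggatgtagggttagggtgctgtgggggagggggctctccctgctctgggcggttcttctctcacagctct
The C1qc match is on the other strand and begins 195 bases before the start. RefSeq promoters of 300 bases were matched to 29 of the 38 genes (36 promoters). GAGGAAGT was in 4 of the 36 (11.1%; Cd53, Inpp5d, Ctss and C1qc), and in 3.20% of all 32851 promoters. The interferon regulatory form GAAANNGAA was in 4 (11.1%; Aif1, Ly86, Ctss and B2m), against 8.56% of all, and the STAT form TTCNNNGAA in 2 (5.56%; Siglech and Irf8), against 8.30%. These are matches of letters and do not show binding.

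In females, 34 of the 38 genes had a lower fitted level in SI than in GH mice, against 47.2% of all 16026 genes tested. Their median Log2FC was -0.09, against 0.01 over all these genes. Many of the 38 varied together between mice of a group (below), so counts among them are not counts of independent genes. A Log2FC here comes from a model that holds surrogate variables beside housing (3 in females, 2 in males), so it need not equal the ratio of the CPM. With edgeR (quasi-likelihood test, p adjusted by Benjamini-Hochberg over all genes), 2 of the 38 were differentially expressed genes (DEGs, adjusted p under 0.05), C4b lower and Il34 higher. Of all genes tested, 2.93% were DEGs that fell and 0.961% DEGs that rose, so a count of 1 in each direction among 38 is near the background. At an unadjusted p under 0.05, 11 of the 38 were lower and 1 was higher, against 11.0% and 9.29% of all genes. These 11 were P2ry12, Siglech, Sall1, Itgam, Laptm5, Trem2, Tyrobp, Fcer1g, Ctss, C1qc and C4b, and their differences other than that of C4b were at most 0.18 in size on the log2 scale.

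**Figure D1:**
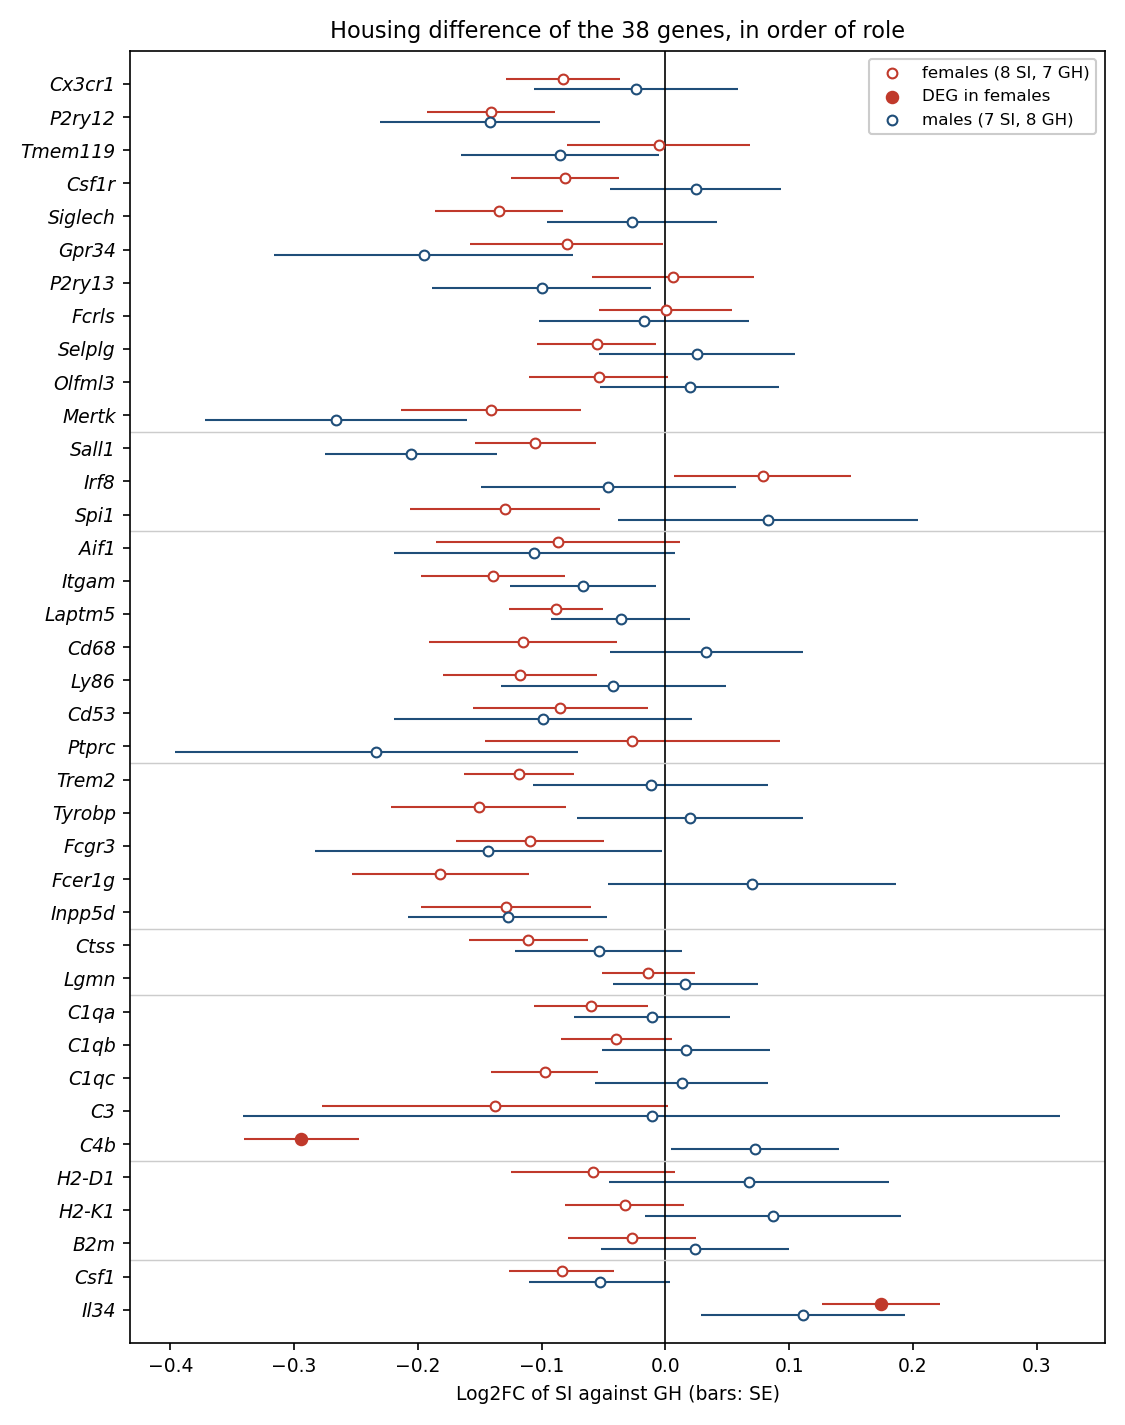
Log2FC of SI against GH (horizontal axis, log2 scale) of each of the 38 genes, in females (red) and males (blue), with bars of 1 SE and filled points for DEGs. Genes are ordered from homeostatic receptors at the top to Csf1r ligands at the bottom, with lines between roles. C4b at -0.29 and Il34 at 0.17 in females are the 2 filled points, and 34 of the 38 female points lie left of 0.

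C4b encodes the complement component C4, which is cleaved after C1q binds, and lies on chromosome 17 of NCBIM37 from 34865325 to 34880827, in the MHC region. The lowest, median and highest level was 31.9, 36.6 and 44.1 CPM in the 8 SI females and 42.7, 45.5 and 48.2 CPM in the 7 GH females. Of the 8 SI females 7 lay below the lowest GH female, the exception being animal 68 at 44.1 CPM, and 5 of the 7 GH females lay above the highest SI female. Across all genes tested, 0.212% had no overlap of the groups with SI lower, and C4b, which overlapped through animal 68, was not among them, nor was any other of the 38. The share of all genes with a partial separation was not computed. Counts of mice beyond the other group's range, here and below, therefore have no background and only describe each gene. C4b fell by 0.29 on the log2 scale (SE 0.0465, edgeR adjusted p = 0.00703, equal to the lowest adjusted p of any gene in females). It remained a DEG with each of the 15 females left out in turn, with a Log2FC between -0.34 and -0.27 and an edgeR adjusted p between 0.00367 and 0.0352. The Log2FC was between -0.33 and -0.28 under the 15 other settings, but the adjusted p was 0.0821 without surrogate variables, 0.113 with a term for the digit that ends each sample title's position code and 0.131 by the exact permutation test over all splits of the mice (unadjusted p = 0.000932, two-sided). C4b is nearly identical in sequence to C4a, which was not analysed here, so how reads were divided between them is uncertain.

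In males C4b was at 29.3, 32.8 and 43.1 CPM (lowest, median, highest) in SI mice and at 30.9, 36.3 and 39.4 CPM in GH mice, and the groups overlapped at both ends. Its Log2FC was 0.07 (SE 0.0678, edgeR adjusted p = 0.654), and it was 0.15 (adjusted p = 0.742) without animals 25, 33 and 39, which were the 3 SI males lowest in C4b. All 7 GH females were above the highest GH male, while SI male 27, at 43.1 CPM, lay inside their range. The difference between the sexes was tested in 1 edgeR fit of all 30 mice with 4 surrogate variables. The male minus the female Log2FC of C4b was 0.39 (SE 0.0833, unadjusted p = 7.61e-05, adjusted p = 0.249), which did not pass over 16391 genes. No gene passed that test (0.0%), its lowest adjusted p was 0.208, and 7.48% of genes had an unadjusted p under 0.05. C4b was the 1 gene of the 38 below 0.05 unadjusted. DESeq2 with the same surrogate variables called it (adjusted p = 0.0153), as did edgeR without SI female 68 (adjusted p = 0.0438), SI male 27 (0.0412) or SI male 7 (0.0345). Of 13 other settings 1 called it, and of 30 edgeR fits with a mouse left out 3 did. The adjusted p was up to 0.9999 and 0.616 in these. Without SI male 27 and SI male 7, edgeR called 281 and 385 genes in all.

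Il34 and Csf1 encode the 2 ligands of Csf1r, the receptor that keeps microglia alive, and in the forebrain Il34 comes mainly from neurons. Il34 (chromosome 8 of NCBIM37, 113265729 to 113329824) was at 31.5, 38.6 and 42.8 CPM in SI females and at 28.1, 33.7 and 38.1 CPM in GH females. The groups overlapped, with 4 of 8 SI females above the highest GH female and 1 GH female, animal 71, below the lowest SI female. Il34 rose by 0.17 on the log2 scale (SE 0.0474, edgeR adjusted p = 0.0499), just inside the threshold. It was no longer called without SI 45, 49, 53, 63, 68 or 73 or without GH 48, 54 or 71, with adjusted p up to 0.203, and 10 of the 15 other settings also ended the call, with adjusted p up to 0.318. The Log2FC stayed between 0.13 and 0.22 in all of these. In males Il34 was at 40.7, 45.2 and 48.8 CPM in SI mice and at 33.3, 39.4 and 49.2 CPM in GH mice. All 7 SI males were above 4 of the 8 GH males, and the male Log2FC was 0.11 (SE 0.0824, edgeR adjusted p = 0.558), or 0.06 without animals 25, 33 and 39. The interaction of Il34 was -0.10 (SE 0.0833, adjusted p = 0.802). Csf1, the other ligand, had a Log2FC of -0.08 (SE 0.0426, adjusted p = 0.287) in females and -0.05 (SE 0.0567, adjusted p = 0.699) in males, where it was 0.07 without those 3 mice. Csf1r itself had -0.08 (SE 0.0437, adjusted p = 0.319) in females and 0.02 (SE 0.0689, adjusted p = 0.908) in males, with or without them.

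**Figure D2:**
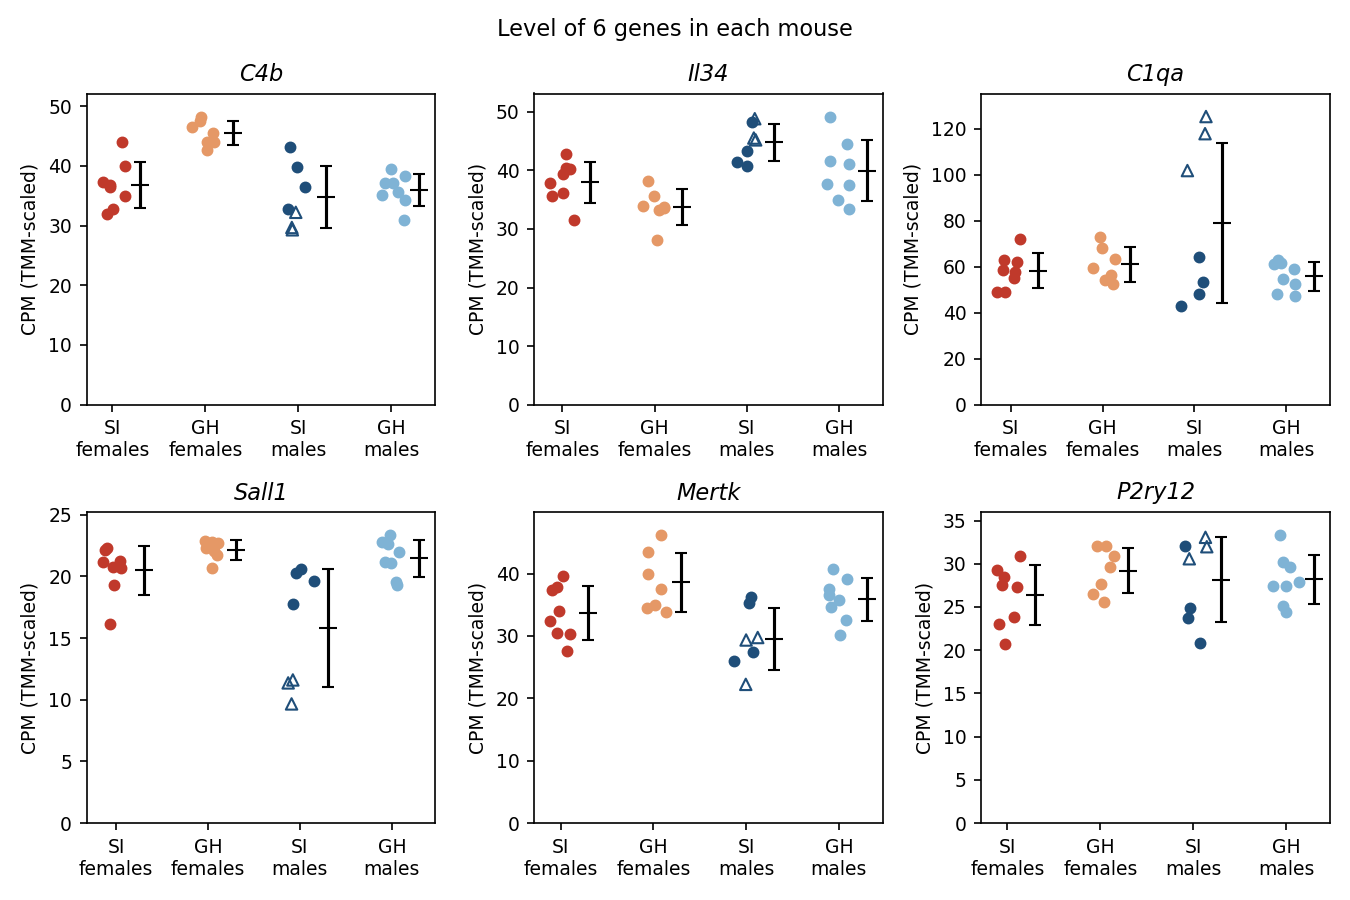
CPM (vertical axis, TMM-scaled, from 0) of C4b, Il34, C1qa, Sall1, Mertk and P2ry12 in each mouse of the 4 groups, with the mean and SD beside the points and open triangles for SI males 25, 33 and 39. For C4b, 7 of 8 SI females lie below all GH females, and for C1qa the triangles, at 102 to 125 CPM, lie above all other mice.

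The other complement genes were lower in SI than GH females in the fit, but none was a DEG. C1qa had a Log2FC of -0.06 (SE 0.0462), C1qb of -0.04 (SE 0.0447) and C1qc of -0.10 (SE 0.043), with edgeR adjusted p of 0.51, 0.674 and 0.208. C1qc was at 36.2, 43.7 and 50.4 CPM in SI females and at 39.8, 45.4 and 53.7 CPM in GH females, so most of the range was shared. C3, the central component of all complement pathways, had 11 to 304 counts per library and a Log2FC of -0.14 (SE 0.14, adjusted p = 0.636) in females. In males the Log2FC of the C1q genes and C3 was between -0.01 and 0.02. Without animals 25, 33 and 39 it was -0.16 for C1qa (unadjusted p = 0.0136, adjusted p = 0.742 by edgeR), -0.10 for C1qb and C1qc and -0.01 for C3.

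The genes of the ITAM adaptors and their receptors had the lowest median Log2FC of the roles in females, -0.13 over 5 genes, and all 5 were lower. Tyrobp (DAP12) and Fcer1g are adaptors that carry the signal of receptors without a signalling tail, Trem2 binds lipids and signals through Tyrobp, Fcgr3 is an IgG receptor, and Inpp5d (SHIP1) is an inositol phosphatase that opposes such signals. Fcer1g was at 4.08, 5.33 and 7.46 CPM in SI females and at 5.05, 6.17 and 7.57 CPM in GH females, and 4 of 8 SI females lay under every GH female. Its Log2FC was -0.18 (SE 0.0715, edgeR adjusted p = 0.161). Tyrobp had -0.15 (SE 0.0708, adjusted p = 0.242), Inpp5d -0.13 (SE 0.0689, adjusted p = 0.318), Trem2 -0.12 (SE 0.0447, adjusted p = 0.145) and Fcgr3 -0.11 (SE 0.0597, adjusted p = 0.326). In males the same 5 genes lay between -0.14 and 0.07 with 3 lower, and none was a DEG. Without animals 25, 33 and 39 all 5 were lower, between -0.19 and -0.02, again with no DEG.

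Among the 11 homeostatic receptors and surface proteins, 9 were lower in SI females and none was a DEG. P2ry12, the ADP receptor that guides microglial processes, was at 20.7, 27.4 and 30.9 CPM in SI females and 25.6, 29.6 and 32.1 CPM in GH females. The groups overlapped, with 3 of 8 SI females below the lowest GH female and 3 of 7 GH females above the highest SI female. P2ry12 had a Log2FC of -0.14 (SE 0.0518, edgeR adjusted p = 0.135), and it was called (adjusted p = 0.0321) once trends on transcript length and GC content had been taken out of each library. That fit called 3 of the 38 genes, 2 lower and 1 higher, against 5.95% and 3.22% of all genes. Siglech, a sialic acid receptor, had -0.13 (SE 0.0517, adjusted p = 0.152), Mertk, a receptor for the uptake of dying cells, -0.14 (SE 0.0725, adjusted p = 0.295), and Cx3cr1, the fractalkine receptor, -0.08 (SE 0.0459, adjusted p = 0.333). Gpr34, Selplg and Olfml3 lay between -0.08 and -0.05. Tmem119 at -0.01 (SE 0.0739), P2ry13 at 0.01 (SE 0.0653) and Fcrls at 0.00 (SE 0.0534) had Log2FC near 0, and these 3 are also markers of homeostatic microglia.

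The 3 transcription factors did not share a direction in females. Sall1, a repressor that keeps microglial identity, had a Log2FC of -0.10 (SE 0.0489, edgeR adjusted p = 0.238) and Spi1 (PU.1) of -0.13 (SE 0.0768, adjusted p = 0.369), while Irf8 had 0.08 (SE 0.0717, adjusted p = 0.591). The 7 pan-myeloid and pan-leukocyte genes were all lower, between -0.14 and -0.03. Of these, Itgam (CD11b) had -0.14 (SE 0.0581, adjusted p = 0.185) and Laptm5, a lysosomal membrane protein, -0.09 (SE 0.0376, adjusted p = 0.194). Cd68, Ly86, Cd53, Aif1 (IBA1) and Ptprc had adjusted p of at least 0.313. Among the proteases, Ctss had -0.11 (SE 0.048, adjusted p = 0.201) and Lgmn -0.01 (SE 0.0374, adjusted p = 0.883).

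The MHC class I genes had Log2FC near 0 in females. H2-D1 and H2-K1 encode heavy chains that present peptides to T cells, and B2m the light chain they share. H2-K1 was at 30.5, 32.9 and 36.8 CPM in SI females and 31.4, 32.5 and 37.8 CPM in GH females, almost the same range. Its Log2FC was -0.03 (SE 0.0482), that of H2-D1 -0.06 (SE 0.0662) and that of B2m -0.03 (SE 0.0517), with edgeR adjusted p of at least 0.677. In males H2-K1, H2-D1 and B2m were at 0.09, 0.07 and 0.02, and at 0.03, 0.04 and -0.03 without animals 25, 33 and 39. H2-D1 and H2-K1 are near copies of each other and of other class I genes, so reads could have been divided between them.

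The summed level of the 31 microglia genes was 733, 819 and 905 CPM (lowest, median, highest) in SI females and 797, 850 and 932 CPM in GH females. The ranges overlapped, and the medians differed by less than the SD of either group (55.6 and 49.6 CPM). Markers of other cell types also differed between the housing groups of females. The 10 astrocyte markers summed to between 4688 and 6569 CPM in SI females (median 5678) and between 5683 and 7673 CPM in GH females (median 7009), and all 10 were lower, 5 of them DEGs. The 10 neuron markers had a summed median of 10696 CPM in SI and 12138 CPM in GH females, with 2 lower, both DEGs, and 8 higher in the fit. The 10 endothelial and mural markers summed to 359 to 429 CPM in SI females and 304 to 374 CPM in GH females. The part of these cells in the C4b difference was not tested. Between females of the same group C4b had r = -0.48 with the mean of the astrocyte markers, 0.58 with that of the neuron markers and 0.16 with that of the endothelial and mural markers, and in males 0.17, 0.54 and 0.37 (15 mice each, with no test, since both values of a mouse come from 1 library). With the oligodendrocyte lineage and choroid plexus markers r was -0.04 and 0.38 in females and 0.10 and 0.09 in males. The male values for these marker lists include animals 25, 33 and 39 and were not taken without them. With the mean of the microglia genes, C4b had r = -0.41 in 15 males and 0.38 in the 12 without those mice.

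In males, 23 of the 38 genes were lower in SI, against 50.7% of all 15833 genes tested. The median Log2FC was -0.02, against -0.00 over all these genes. This direction depended on the setting. Without surrogate variables 12 were lower (median 0.09), without animals 25, 33 and 39 and with surrogate variables 31 were lower (median -0.08), and in 1 fit of all 4 groups 34 were lower (median -0.06). None was a DEG, and neither was any other gene (0.0%), with a lowest edgeR adjusted p of 0.295, while 44 genes, none of the 38 among them, passed in DESeq2 when it was given these surrogate variables. At an unadjusted p under 0.05, 2 of the 38 were lower and none was higher, against 7.38% and 5.63% of all genes. These 2 were Mertk and Sall1. Mertk was at 22.2, 29.4 and 36.2 CPM in SI males and 30.2, 36.2 and 40.7 CPM in GH males. Of 7 SI males 5, animals 25, 33 and 39 among them, were below the lowest GH male. The Log2FC of Mertk was -0.27 (SE 0.106, edgeR adjusted p = 0.342). Sall1 was at 9.66, 17.7 and 20.6 CPM in SI males and 19.3, 21.6 and 23.3 CPM in GH males. Of 7 SI males 4 were below the lowest GH male, again with animals 25, 33 and 39 among them. The Log2FC of Sall1 was -0.21 (SE 0.0693, adjusted p = 0.312). Between males of a group, Sall1 had r = -0.79 with the mean of the other microglia genes. With the means of the astrocyte and neuron markers it had 0.04 and 0.88. For Mertk these were -0.15, 0.44 and 0.20. Without animals 25, 33 and 39 r with the microglia genes was -0.05 for Sall1 and 0.29 for Mertk. Without animals 25, 33 and 39 the Log2FC of Mertk was -0.21 (unadjusted p = 0.0798 by edgeR) and that of Sall1 -0.12 (unadjusted p = 0.116 by edgeR), while C1qa and Tmem119, both at -0.16, and C4b at 0.15 had an unadjusted p under 0.05. In the same fit 955 of all 16241 genes had an unadjusted p under 0.05, 470 of them lower in SI, so 3 of 38 is near its background. When SI male 27 was left out, edgeR called 2414 genes in males, and Mertk (adjusted p = 0.0211), Sall1 (0.0127) and P2ry12 (0.0424) were then among them, all lower in SI. That fit called 9.16% of all genes as lower, so 3 of 38 is near its background.

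In SI males the CPM of many of the genes fell into separate ranges that went with transcript length. Animals 25, 33 and 39 were above the other 4 SI males in 16 of the 38 genes, whose transcripts were from 564 to 3729 bases long, and below them in 5 genes (Sall1, Itgam, Inpp5d, C4b and Csf1) of 4176 to 5379 bases. Of all genes tested in males, 26.9% had these mice above and 29.8% below the other 4, so such a separation was common. C1qa was at 102 to 125 CPM in these 3 mice and at 42.8 to 64.2 CPM in the other 4, Cx3cr1 at 85.5 to 152 against 48.9 to 57.6 CPM, and B2m at 85.2 to 90.8 against 44.3 to 60.0 CPM. Sall1 was at 9.66 to 11.6 against 17.7 to 20.6 CPM, and Csf1 at 11.4 to 13 against 21.1 to 26.6 CPM. Without surrogate variables, the male Log2FC of the 38 genes had r = -0.81 with the log2 transcript length, and its median was 0.31 in the 19 genes shorter than 2257.5 bases and -0.04 in the 19 longer ones. With the 2 surrogate variables r was -0.36. Without animals 25, 33 and 39 and without surrogate variables r was -0.11, and the medians were -0.04 and -0.06. In females r was -0.06 in the fit with surrogate variables and -0.06 without. The correlations are across genes, which are not independent replicates.

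**Figure D3:**
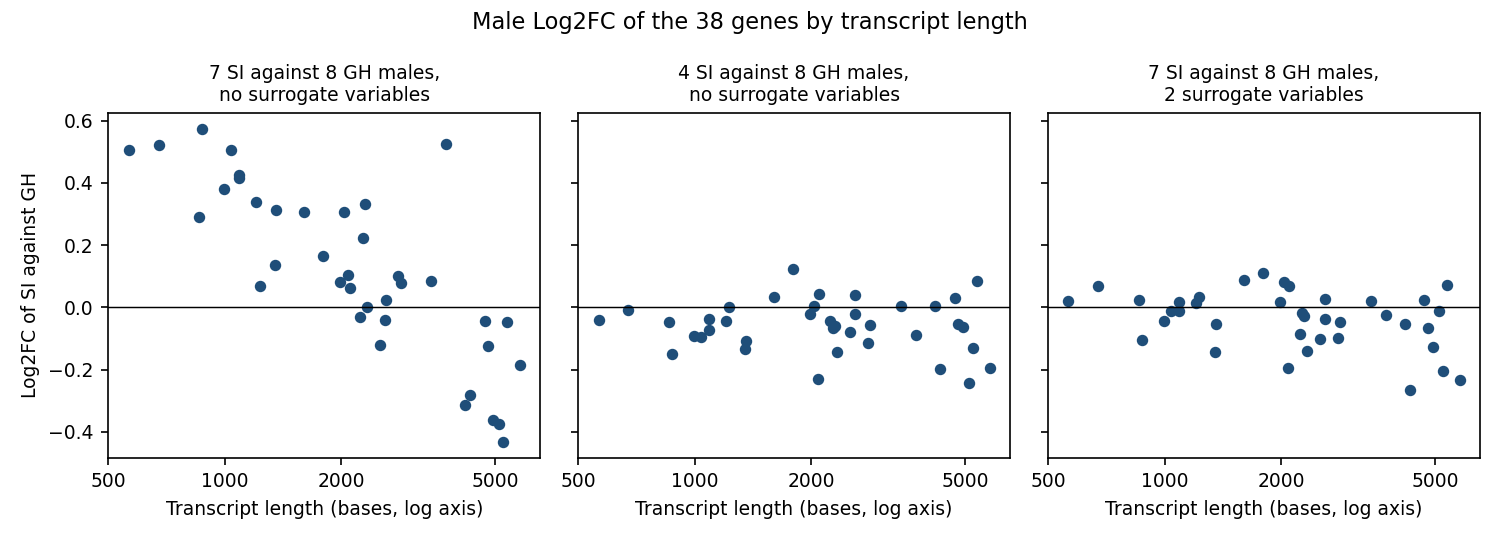
Log2FC of SI against GH males (vertical axis) of the 38 genes by transcript length in bases (log axis), without surrogate variables in all mice (left), without surrogate variables and without SI males 25, 33 and 39 (middle), and with 2 surrogate variables in all mice (right). The slope seen on the left (r = -0.81) is weak in the middle (r = -0.11).

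Between mice of the same group, many of the genes rose and fell together. Over 30 mice, after removal of the group means, C1qa and C1qb had r = 0.98, C1qa and C1qc 0.97, C1qb and C1qc 0.96, Tyrobp and Trem2 0.94 and Tyrobp and Fcer1g 0.91, and in the 15 females alone these were 0.97, 0.95, 0.91, 0.85 and 0.87. The median over all 465 pairs of the 31 microglia genes was 0.35, with a range from -0.88 to 0.98. H2-K1 and B2m had r = 0.82 over all mice, but 0.35 in females and 0.93 in males. In females, 15 of the 38 genes had r above 0.8 with the mean of the (other) microglia genes, among them the C1q genes, Ctss, Siglech, P2ry12, Cx3cr1 and Trem2, whose lengths were from 564 to 3729 bases. There were 9 genes with r below 0, namely C3, C4b, Csf1, Csf1r, H2-D1, Inpp5d, Itgam, Laptm5 and Sall1, from 2102 to 5379 bases. Csf1 was at -0.90, C4b at -0.65 and Csf1r at -0.07, whereas Il34 was at 0.61. Across the 38 genes this r had itself r = -0.68 with log2 transcript length in females, -0.76 in males and -0.71 in the 12 males without animals 25, 33 and 39. In females Csf1r, Itgam, Inpp5d and Sall1, microglia genes with long transcripts, had r from -0.55 to -0.06. In the 12 males Csf1r was at 0.39, Itgam at 0.29, Inpp5d at -0.02, Sall1 at -0.05 and C4b at 0.38, while Csf1 was at -0.57 and Il34 at 0.19. With the mean of the neuron markers, Il34 had r = -0.57 in the 15 females and -0.21 in the 15 males.

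**Figure D4:**
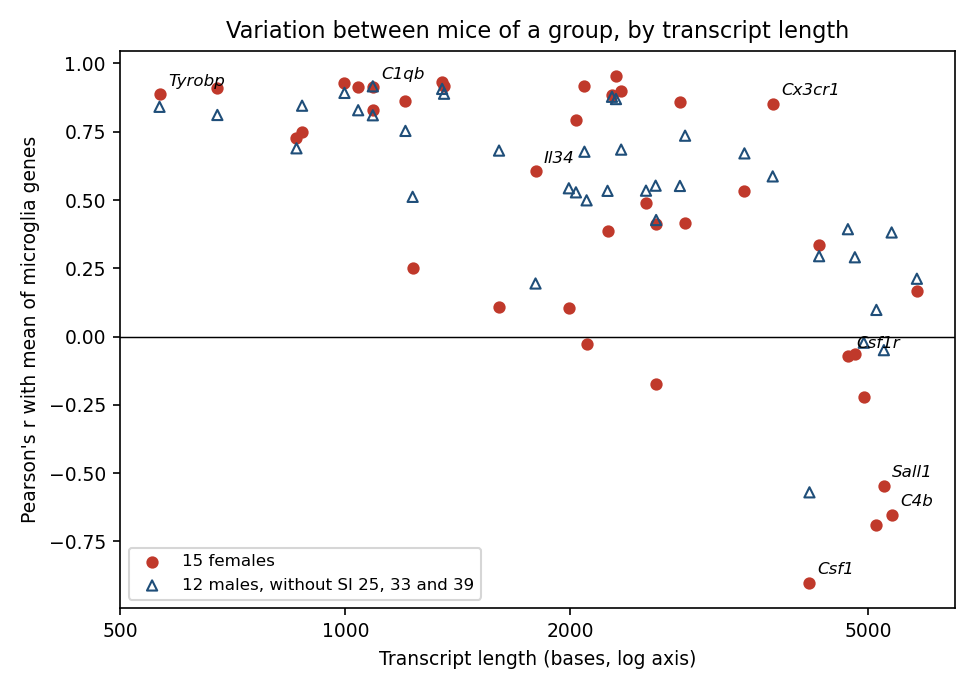
Pearson's r of each of the 38 genes with the mean of the microglia genes, after removal of group means (vertical axis), by transcript length in bases (log axis), in 15 females (filled) and in 12 males without SI 25, 33 and 39 (open triangles). Among the filled points, Sall1, C4b, C3 and Csf1 lie lowest and all have long transcripts.

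Lists of related genes gave DEGs in females and none in males. Of all genes tested in females, 47.2% were lower in SI, 2.93% were DEGs that fell and 0.961% DEGs that rose. Of 49 other microglia genes 37 were lower in SI females, with a median of -0.06 and no DEG, the 2 with the smallest p being Cmtm6 at -0.13 (edgeR adjusted p = 0.0887) and Vsir at -0.11 (adjusted p = 0.118). Of 37 other complement genes tested, 15 were lower and 22 higher. Calr, a chaperone that C1q binds on dying cells, rose by 0.29 (adjusted p = 0.0132), Clu, an inhibitor of the terminal pathway made by astrocytes, fell by 0.19 (adjusted p = 0.014), and Masp2, a protease of the lectin pathway, rose by 1.38 (adjusted p = 0.02). Masp2 had 1 to 29 counts per library, and its Log2FC was between 0.61 and 1.44 under the other settings, with adjusted p up to 0.658. Its call was kept in 3 of the 12 other settings that gave it an adjusted p and in 11 of 15 fits with a female left out. Of 25 other MHC class I and antigen processing genes 16 were lower, and Mr1, which presents vitamin metabolites, fell by 0.31 (adjusted p = 0.014). Of 15 other settings, 12 kept the call of Calr, 9 that of Clu and 7 that of Mr1, and 15, 13 and 13 of the 15 fits with a female left out did so. The 7 MHC class II genes (4 lower in females, 5 lower in males) had no DEG in either sex, with H2-DMa at -0.06 (adjusted p = 0.616) and Ciita at 0.19 (adjusted p = 0.664) in females.

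Of 24 interferon response genes 19 were lower in SI females with a median of -0.12, and Ifit3 fell by 0.62 (edgeR adjusted p = 0.0328). Ifit3 was at 6.26, 7.51 and 8.53 CPM in SI females and 7.27, 11.1 and 17.0 CPM in GH females, and the GH females spread more. Of 23 disease-associated microglia genes 15 were lower, and among them Axl, a receptor for dying cells, fell by 0.27 (adjusted p = 0.0199), Apoe by 0.20 (adjusted p = 0.0266) and Fth1, the ferritin heavy chain, by 0.18 (adjusted p = 0.0455), and astrocytes and other cells express all 3. These calls were not stable, since 10, 9 and 6 of 15 other settings and 11, 9 and 5 of 15 fits with a female left out kept those of Axl, Apoe and Fth1, and for Ifit3 the counts were 12 and 9. Among 21 cytokine, chemokine and inflammatory signalling genes, 8 lower and 13 higher, there was no DEG, Cx3cl1, the ligand of Cx3cr1, being at 0.16 (adjusted p = 0.0681) and Cxcl12 at 0.18 (adjusted p = 0.072). The 12 border macrophage markers had 11 lower in females and 10 higher in males and no DEG in either, with Lyve1 at -0.44 (adjusted p = 0.267) and F13a1 at -0.30 (adjusted p = 0.29) in females. Monocyte, neutrophil and lymphocyte markers were low, summing to at most 9.98 and 4.41 CPM in any mouse. Of the markers of other cells, Slc1a2 fell by 0.28, S100b by 0.26, Slc1a3 by 0.24 and Aldoc by 0.22 among astrocyte genes (adjusted p from 0.0108 to 0.0163), Camk2a fell by 0.24 and Map2 by 0.28 among neuron genes (adjusted p = 0.0197 and 0.022), and the endothelial gene Flt1 rose by 0.14 (adjusted p = 0.0496). Of the 15 other settings 6 kept the call of Flt1, 7 that of S100b, 9 that of Aldoc, 10 those of Slc1a2 and Camk2a and 11 those of Slc1a3 and Map2, and with a female left out the calls of Flt1, Map2 and Camk2a were kept in 6, 8 and 9 of 15 fits. The 10 oligodendrocyte lineage markers were all lower in SI females with no DEG (Pdgfra -0.16, adjusted p = 0.0702), and the 10 choroid plexus markers were all higher with no DEG (Otx2 0.32, adjusted p = 0.138).

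In males, the smallest p in these lists belonged to genes that did not pass. C3ar1, the receptor of the C3a fragment, had a Log2FC of 0.46 (SE 0.131) and Csf2ra, a subunit of the GM-CSF receptor, of 0.39 (SE 0.0902), both at the lowest edgeR adjusted p in males, 0.295. Without animals 25, 33 and 39 they were at 0.51 and 0.41, and did not pass (adjusted p = 0.742). Vtn was at 0.32 (adjusted p = 0.30), Nckap1l at -0.21 (0.359), Fyb at -0.45 (0.375), H2-Ke6 at 0.19 (0.33) and Tap2 at 0.19 (0.362). Vtn, Nckap1l and Fyb were at 0.28, -0.14 and -0.39 without animals 25, 33 and 39. Trim30a was at -0.26 (0.495) but Bst2 at 0.14 (0.553), and Il1r1 at -0.24 (0.375) but Tnfrsf1a at 0.13 (0.485). Axl was at -0.29 (0.339), Cd209f at 0.53 (0.535) and Cbr2 at 0.23 (0.628). Axl was below 0 in both sexes, at an unadjusted p under 0.05 in each, though it was called in females alone and the difference between the sexes did not pass. Without animals 25, 33 and 39 the male Log2FC of Axl was -0.20 (unadjusted p = 0.0841 by edgeR). Among other cell types the smallest male p were those of Fgfr3 at -0.26 (adjusted p = 0.312) and Slc1a2 at -0.36 (0.323) for astrocytes, and Map2 at -0.42 (0.30) and Rbfox3 at 0.32 (0.312) for neurons. For the oligodendrocyte lineage they were those of Opalin at 0.20 (0.33) and Pdgfra at -0.19 (0.354).

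Of all genes tested in males, 50.7% were lower in SI, and 50.8% without animals 25, 33 and 39. The number of genes lower in SI males was 39 of 49 for the other microglia genes, 15 of 36 for the other complement genes, 10 of 24 for the other MHC class I and antigen processing genes, 15 of 24 for the interferon response genes, 11 of 23 for the disease-associated genes and 9 of 21 for the cytokine genes. Of the marker lists of 10 genes, 8 astrocyte, 3 oligodendrocyte lineage, 3 endothelial and mural, 5 neuron and 8 choroid plexus markers were lower in SI males. Without animals 25, 33 and 39 these were 37 of 49, 11 of 37, 16 of 25, 14 of 24, 15 of 23 and 9 of 21 for the gene lists, in the same order, and 9, 4, 2, 3 and 3 of 10 for the markers, so the majority turned in the choroid plexus, the MHC class I and antigen processing and the disease-associated lists. The other microglia genes had a median Log2FC of -0.09 in males with these mice and without them, and the 38 genes one of -0.02 with them and -0.08 without.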

How the data were processed

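RNA-seq was analysed from 30 hippocampi, 1 library per mouse. Per the submitters' processing notes, reads were trimmed with Trimmomatic 0.39 and quantified with Salmon 1.8.0, with GRCm39 (mm39) named as build. The authors deposited whole-number counts per Ensembl gene without normalization, for 17477 genes with at least 100 counts in total. Symbols were matched for 16439 IDs (94.1%), and transcript lengths from GENCODE vM1 (NCBIM37) for 15964. Spi1 was found under an older symbol.

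Counts were tested with R 4.3.3 and edgeR 4.0.16 (filterByExpr with minimum count 10 and total 15, TMM, glmQLFit and glmQLFTest) in each sex, with surrogate variables from svaseq of sva 3.50.0 (3 in females, 2 in males, 4 in the interaction fit of all mice, 20 permutations, seed 1). P-values were adjusted by Benjamini-Hochberg over all genes at 0.05, and the SE is the Log2FC divided by the square root of F. TPM was computed from counts per transcript length. The 38 genes and all gene lists were chosen with earlier results of these data known. Named are all 38, and in other lists DEGs (at most 4 per list and sex, by p) or else up to 2 genes of smallest p. Alternatives were DESeq2 1.42.0, limma-voom (limma 3.58.1), other numbers of surrogate variables, size factors, filters, the position digit, length and GC trend removal (lowess span 0.3), all groups in 1 fit, exact permutation over 6435 splits, and leaving out each mouse. Leaving out SI males 25, 33 and 39 was added after seeing the data. Steps were tested on simulated counts drawn independently for each mouse, with no length trend and no mice that stand apart. They do not show how the fits handle such structure. Total counts were 18809307 to 100844898, and all columns were matched to mice (0 unmatched). List genes missing from the table were not analysed here.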

Additional observations from a re-analysis of the deposited data

Results flagged for a closer look

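Of 152 groups of CPM values (38 genes in 4 groups), 4 had an end value whose gap to its neighbour was large against the group's range by Dixon's criterion, and chance gives about 1 in 20. P2ry13 was at 11.7 CPM in SI male 27, with the next SI male at 10.1 CPM. Selplg was at 41.7 CPM in SI male 38, with the next at 35.0 CPM. Aif1 was at 6.21 CPM in SI female 53, with the next at 4.18 CPM. H2-D1 was at 54.1 CPM in SI female 49, with the next at 47.4 CPM. None of these genes was a DEG in either sex.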

How the results depend on the processing

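In females, 2 of the 38 genes were DEGs (C4b and Il34). There were 0 without surrogate variables, with the position digit as a factor and by exact permutation, settings in which 0 of all 16026 genes were called. There was 1, C4b, with 1 surrogate variable, DESeq2 without surrogate variables, DESeq2's size factors, no filter, 10 counts in every sample, trend removal without surrogate variables and all groups in 1 fit. Trend removal with surrogate variables gave 3 (with P2ry12), where 9.17% of all genes were called. With each female left out it was 1 to 2, and 33 to 36 of the 38 genes were lower. In males the count was 0 under all 17 other settings and 0 to 3 with each male left out, being 3 without SI 27, where 2414 of 15790 genes were called, and 0 without any other. Between 12 and 34 of the 38 were lower in males under the other settings, and 13 to 31 with a male left out. The interaction gave 0 except with DESeq2 and surrogate variables, where it gave 1 (C4b) of 7 genes called in all, and 0 to 1 with each mouse left out. In females 63 of 1140 values of single genes changed sign while not called, and in males 254 of 1216, and no called value reversed. The cause was not tested. No paired analysis was possible because the groups share no replicate numbers, the numbers being those of animals.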
